A study of Mus musculus with 12 samples.

Results

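Gsr, the gene for glutathione reductase, was examined together with 9 other genes of the glutathione and thioredoxin redox system, Gclc, Gclm, Gss, Gpx1, Gpx2, Gsto1, Gsta4, Gstm1 and Txnrd1, in the epithelium of the mouse conjunctival fornix. The genes were taken by symbol, as the 20 probe sets whose platform annotation names one of them, of 45101 probe sets on the array. All 10 genes were among the 14163 genes tested, each through its brightest probe set. A probe set is a group of short probes for 1 transcript or gene, and its signal is an array brightness on a linear scale.

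The fornix is the recess where the conjunctiva of the eyelid folds back onto the eyeball. Its epithelial layer was isolated by laser capture from mice of a mixed background, and its RNA was amplified in 2 cycles and hybridised to 12 arrays. There were 3 wild-type samples at postnatal day 9 (PN9), 3 at day 14 (PN14), 3 at day 20 (PN20), and 3 at day 14 from animals labelled Klf4CN, which the labels give as a conditional knockout of Klf4, a zinc finger transcription factor. The labels name neither the Cre driver of Klf4CN nor the part of the gene it removes, and they tie no sample to an animal. P-values therefore measure the spread between these samples only, which may be technical. The brighter Klf4 probe set read 4385 to 6824 in wild type at PN14 and 7417 to 10923 in the samples labelled Klf4CN, 1.65-fold higher without passing (limma's adjusted p = 0.22). A second Klf4 probe set read 703, 1540 and 879 in that wild type and 3944, 1872 and 872 in Klf4CN, with overlap. Neither probe set was thus lower in the samples labelled as the knockout, which goes against a loss of the signal, but the part of Klf4 that was removed is not given, so this does not check the labels. Klf4CN below means that label.

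Glutathione is a tripeptide that cells hold mostly in its reduced form. The ligase encoded by Gclc, with the modifier subunit encoded by Gclm, makes the rate-limiting dipeptide, and the synthetase encoded by Gss adds glycine. Glutathione peroxidases use glutathione to reduce peroxides, glutathione transferases couple it to reactive compounds, and glutathione reductase turns the oxidised form back with NADPH. Thioredoxin reductase, from Txnrd1, does the like for thioredoxin. Many of these genes are known targets of the transcription factor NRF2, encoded by Nfe2l2, which binds antioxidant response elements.

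The start regions that hold the core letters of that element are shown for the 2 genes that carry it there, among the 7 with a start region to search: Txnrd1, which rose with age, and Gclm, which passed in no comparison. The letters TGACNNNGC were searched on both strands in windows of 300 bases, from 250 before to 50 after a gene's start, in RefSeq's GRCm38.p6 table. Of the 10 genes 7 had windows there, 10 in all, and Gsr, Gclc and Gsta4 had none. The letters were found in 2 of these 10 windows and in 12.4% of all 32851 windows of the table. The letters TGANTCA, the AP-1-like form, were in none of the 10. The 250 bases before each start follow, 5′ to 3′ on the plus strand, with the match in capitals. Both matches read TGACNNNGC on the minus strand. The Gclm stretch is chr3:122245307-122245556, and its match begins 134 bases before the start. The Txnrd1 stretch is chr10:82858956-82859205, 1 of 3 start windows of that gene, and its match begins 92 bases before the start. A match of letters is a description, not a bound site.
Gclm: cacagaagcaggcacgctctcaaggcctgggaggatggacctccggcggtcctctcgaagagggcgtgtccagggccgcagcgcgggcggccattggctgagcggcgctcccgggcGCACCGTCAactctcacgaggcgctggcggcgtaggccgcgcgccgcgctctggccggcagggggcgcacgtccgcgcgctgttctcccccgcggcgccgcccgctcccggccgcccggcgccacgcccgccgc
Txnrd1: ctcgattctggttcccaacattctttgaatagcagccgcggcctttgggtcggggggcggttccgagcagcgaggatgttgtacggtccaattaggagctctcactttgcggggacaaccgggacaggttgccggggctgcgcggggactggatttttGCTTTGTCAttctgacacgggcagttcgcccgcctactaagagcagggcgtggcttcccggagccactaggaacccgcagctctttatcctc

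Differences were tested with limma across all genes on the log2(signal + 16) scale, and a gene passed at a Benjamini-Hochberg adjusted p under 0.05. The offset of 16 understates the change of dim genes, and 3 arrays per group limit the precision. From PN9 to PN14, 2 of the 10 genes rose (Gclc and Txnrd1) and 0 fell, while 7% of all genes passed, 4.34% upward and 2.66% downward. From PN14 to PN20, 1 of the 10 (Gsr) rose and 0 fell, where 1.35% of all genes passed, 0.671% upward and 0.678% downward. Over the whole span from PN9 to PN20, 4 of the 10 (Gsr, Gclc, Gsta4 and Txnrd1) rose and 0 fell, and 24.3% of all genes passed, 13.5% upward and 10.8% downward. Between Klf4CN and wild type at PN14 0 of the 10 passed in the limma fit, and 0.184% of all genes passed, 0.0777% upward and 0.106% downward. At an unadjusted limma p under 0.05 there were 3, 3, 5 and 2 of the 10 in these 4 comparisons in turn, against 26%, 16.9%, 36.9% and 8.59% of all genes. The median log2 change of the 10 genes was 0.15, 0.04, 0.21 and -0.19 in the same order, against 0.01, 0.01, 0.02 and -6e-04 over all genes. Genes whose 2 groups did not overlap were counted too: 3 of the 10 genes from PN9 to PN14 (29.8% of all genes), 4 from PN14 to PN20 (30.3%), 4 from PN9 to PN20 (43.6%) and 3 for Klf4CN (13.1%). These comparisons share arrays, so their counts are not independent of each other.

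**Figure D1:**
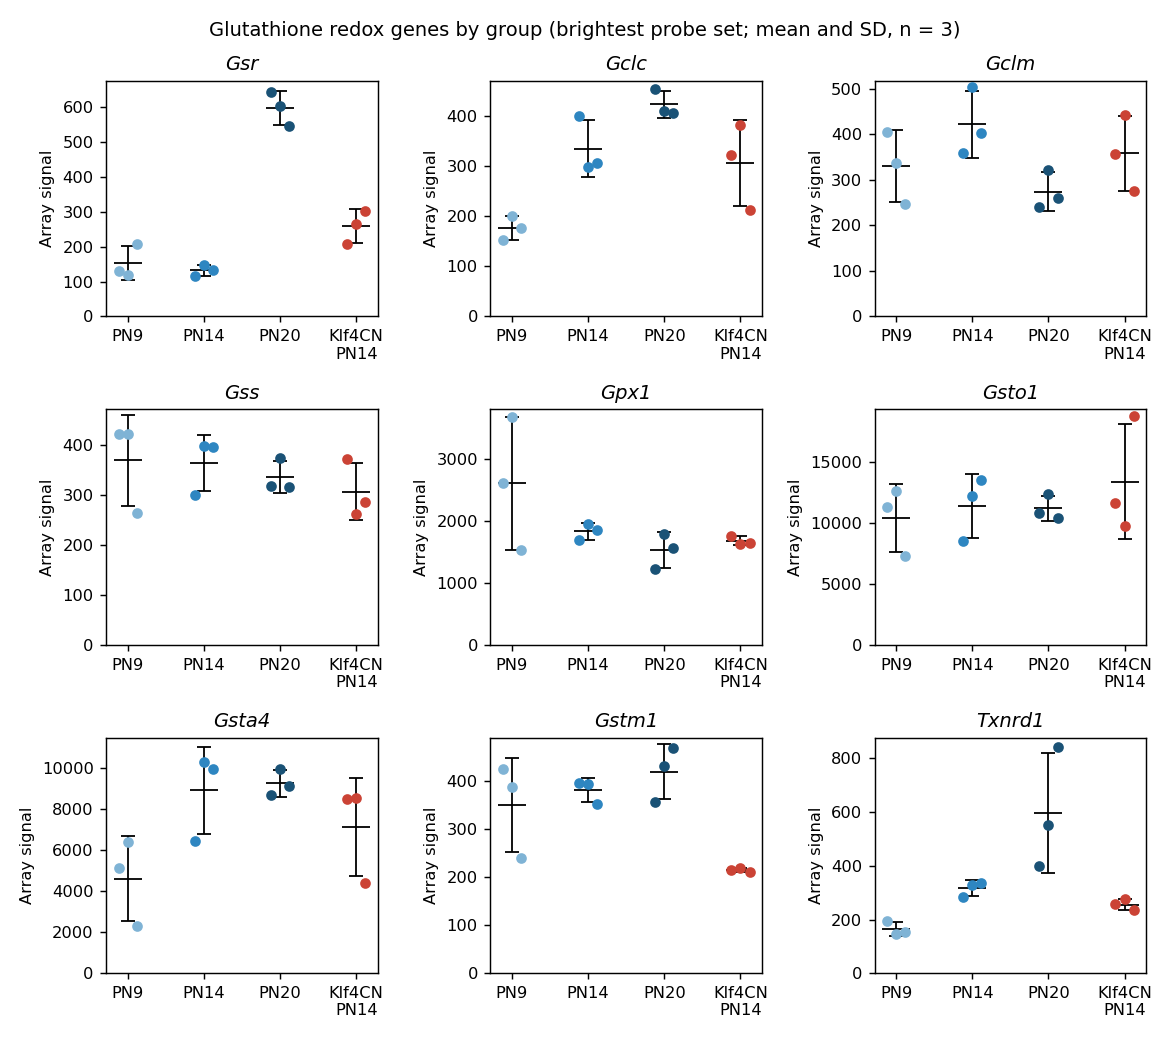
Array signal (linear, scaled to a common median) of the brightest probe set of 9 genes, by group, with each array as a point and the mean ± SD (n = 3) in black; Gpx2, with no Present call, is left out. The 3 PN20 arrays of Gsr, between 545 and 644, stand above all other arrays of that gene, and the 3 Klf4CN arrays of Gstm1, between 212 and 219, stand below all others.

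Gsr showed a late rise. Its signal was 131, 119.6 and 208 on the 3 arrays of PN9, and 117, 147 and 132 at PN14. At PN20 the 3 arrays read 644, 603 and 545, and in Klf4CN at PN14 they read 208, 265 and 303. All PN20 arrays lay above every other array, whereas PN9 and PN14 overlapped. The means were 153 ± 48.1 at PN9, 132 ± 15.0 at PN14 and 597 ± 49.9 at PN20 (SD, n = 3). Gsr rose 4.15-fold from PN14 to PN20 (log2 change 2.05 ± 0.22 SE, limma's adjusted p = 0.00244) and 3.72-fold from PN9 to PN20 (1.89 ± 0.22, adjusted p = 9.3e-05). From PN9 to PN14 its log2 change was -0.16, with a 95% interval of -0.62 to 0.30 (adjusted p = 0.683). Both rises passed under every one of the 25 other settings tried, with log2 changes of 1.53 to 2.17 for PN14 to PN20.

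The timing itself was tested by taking the later step minus the earlier step in the same limma fit, a test chosen after the values were seen. For Gsr the later step was larger by 2.21 ± 0.38 on the log2 scale (adjusted p = 0.0287), where 0.169% of all genes passed, 0.0777% with a larger later step. This call was lost in 10 of 24 other settings, with adjusted p up to 0.176 and a difference that stayed between 1.70 and 2.36. It was lost without PN9 replicate 1 (adjusted p = 0.0717), without PN14 replicate 1 (0.176), 2 (0.107) or 3 (0.118), and without PN20 replicate 1 (0.0687), 2 (0.1003) or 3 (0.0671). The other 9 genes did not pass this test, the smallest adjusted p among them being 0.357 for Gclm.

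In Klf4CN at PN14, Gsr was 1.84-fold above wild type of the same age (log2 0.88 ± 0.22), and the groups did not overlap, as for 13.1% of all genes. The difference did not pass over all genes (adjusted p = 0.196), and its 95% interval ran from 0.42 to 1.35. With array weights, which count less consistent arrays less, it was 0.66 and passed (adjusted p = 0.0445), where 453 genes passed in place of 26. It did not pass in the other 24 of 25 settings. The Klf4CN arrays overlapped PN9 and lay below PN20.

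A second Gsr probe set had no Present call, the software's mark of a detected transcript, on any of the 12 arrays, with signals from 2.93 to 35.5. The late rise of Gsr therefore rests on 1 probe set. In the authors' deposited table, this probe set scored 9 for PN14 to PN20 and 9 for PN9 to PN20, the largest sum that 9 array pairs allow, and both comparisons passed the authors' rule. For Klf4CN the authors' deposited table gives it a sum of 7, and that comparison did not pass their rule, which also asks for a difference over 2-fold.

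Txnrd1, the cytosolic thioredoxin reductase, rose from PN9 to PN14 and from PN9 to PN20. It read 196, 148 and 155 at PN9, and 285, 329.8 and 336 at PN14. At PN20 the arrays read 399.6, 552 and 839, a spread much wider than in the other groups. No 2 of the 3 ages overlapped. Txnrd1 rose 1.83-fold from PN9 to PN14 (log2 0.87 ± 0.23, adjusted p = 0.0400) and 3.24-fold from PN9 to PN20 (1.70 ± 0.23, adjusted p = 0.000325). The step from PN14 to PN20, 0.82 ± 0.23, did not pass (adjusted p = 0.0905). The first step is fragile: it lost its call in 12 of 25 other settings, among them leaving out any single array of PN9 or PN14 (adjusted p 0.0685 to 0.114), PN20 replicate 2 (0.0601) or Klf4CN replicate 1 (0.0514). With the mean of the kept probe sets of the gene, 1 of which had no Present call on any array, it was 0.33 (adjusted p = 0.482). The rise from PN9 to PN20 held under all 25 settings, with log2 changes of 1.13 to 1.94.

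Klf4CN arrays of Txnrd1 read 256, 276 and 234, all below the wild-type arrays of PN14, but the difference of -0.29 (95% interval -0.80 to 0.21) did not pass (adjusted p = 0.773). The other 2 probe sets of Txnrd1 had no Present call on any array, and 1 of them fell below the filter on dim probe sets. The Txnrd1 values thus also rest on 1 probe set. In the authors' deposited table Txnrd1 passed from PN9 to PN20 only.

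**Figure D2:**
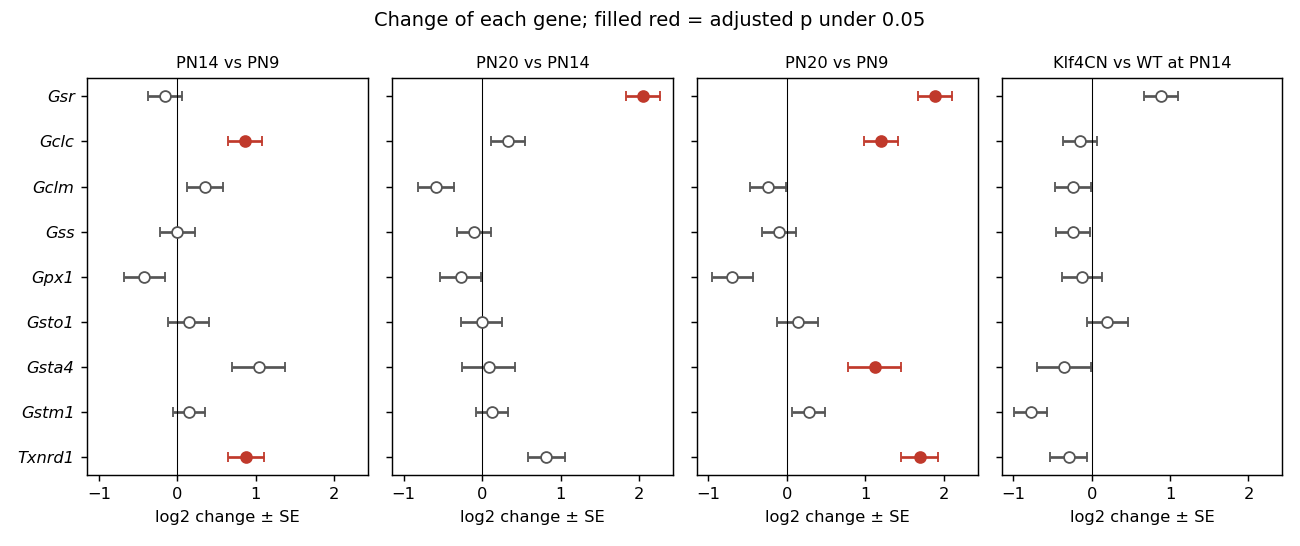
Log2 change ± SE of 9 genes in the 4 comparisons (limma, log2(signal + 16) scale), with filled red points for an adjusted p under 0.05. Gsr is the only filled point for PN14 to PN20, at 2.05, Gclc, Gsta4 and Txnrd1 join it for PN9 to PN20, and no point is filled for Klf4CN.

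Among the genes of glutathione synthesis, Gclc rose early while Gclm and Gss did not pass in any comparison. Gclc, the catalytic subunit of the ligase, read 153, 201 and 176 at PN9 and 400.5, 299 and 308 at PN14. It read 455, 410.2 and 407 at PN20, above every PN14 array but by little, and 323, 382 and 213 in Klf4CN, which overlapped wild type of the same age. Gclc rose 1.82-fold from PN9 to PN14 (log2 0.86 ± 0.22, adjusted p = 0.0317) and 2.30-fold from PN9 to PN20 (1.20 ± 0.22, adjusted p = 0.00169). Its step from PN14 to PN20 was 0.33 ± 0.22 (adjusted p = 0.472), and that of Klf4CN against wild type was -0.15 (95% interval -0.62 to 0.31, adjusted p = 0.894).

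A second Gclc probe set, also Present on all 12 arrays, gave the like course. It read 161, 143 and 129 at PN9 and 312, 315 and 320.3 at PN14, a log2 change of 1.06 ± 0.26 (adjusted p = 0.0335 over all kept probe sets). Its change from PN9 to PN20 was 1.16 ± 0.26 (adjusted p = 0.00677). In the authors' deposited table this second probe set passed from PN9 to PN14 and from PN9 to PN20, and the brighter one from PN9 to PN20 only.

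The early rise of Gclc lost its call without PN9 replicate 1 (adjusted p = 0.114) or 2 (0.0518), without PN14 replicate 1 (0.124), 2 (0.0642) or 3 (0.0533), and with arrays scaled by the all-probe-set median (0.0604). With the 3′/5′ signal ratio of a beta-actin control as a covariate, which goes up where RNA is shortened, it was 0.58 (adjusted p = 0.1999). The rise from PN9 to PN20 passed in 24 of 25 settings and was 0.75 with that covariate (adjusted p = 0.116).

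Gclm, the modifier subunit of the ligase, had 2 probe sets that disagreed. The brighter one read 405, 337 and 247 at PN9, 359, 503 and 402 at PN14, and 240.4, 322 and 259.8 at PN20. All PN20 arrays were below those of PN14, and the log2 change of -0.59 ± 0.23 did not pass (adjusted p = 0.204). Its Klf4CN arrays, 356, 441 and 276, overlapped wild type. The dimmer one read 99.7, 123 and 85.4 at PN9, 201, 135 and 116 at PN14, and 214, 195 and 169 at PN20. Between PN9 and PN20 the brighter one changed by -0.24 and the dimmer one by 0.82, neither passing (adjusted p = 0.499, and 0.0691 over all kept probe sets). No direction is therefore given for Gclm.

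Gss, glutathione synthetase, had overlapping groups at all ages. Its brighter probe set read 421, 422 and 263 at PN9, 300.4, 398 and 395 at PN14, 318, 373 and 317 at PN20, and 371, 262 and 287 in Klf4CN. Klf4CN overlapped them too. The log2 change from PN9 to PN20 was -0.10, with a 95% interval of -0.57 to 0.37 (adjusted p = 0.7796). The second probe set of Gss went the other way in that comparison (0.40) and in Klf4CN, where it read 216, 261 and 297 against 218, 168 and 164 in wild type. There its log2 change was 0.46 and that of the brighter one -0.24, and neither passed.

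**Figure D3:**
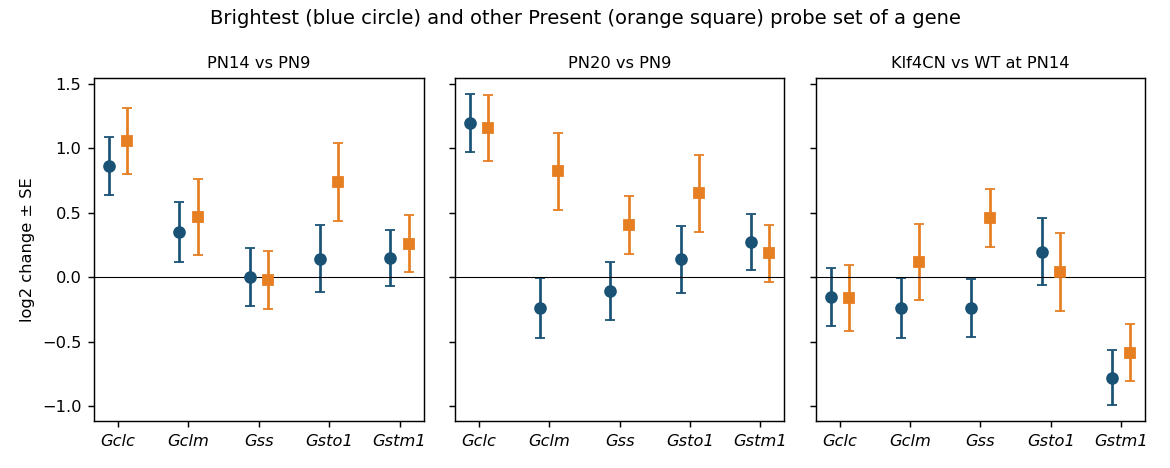
Log2 change ± SE of the brightest (blue circle) and the next probe set (orange square) of the 5 genes with 2 probe sets Present on all 12 arrays, for PN9 to PN14, PN9 to PN20 and Klf4CN against wild type. In these 3 the pairs of Gclc and Gstm1 lie on the same side of 0, and those of Gclm and Gss lie on opposite sides from PN9 to PN20 and in Klf4CN, for example at -0.24 and 0.82 for Gclm from PN9 to PN20.

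Of the peroxidases, only Gpx1 could be followed. Gpx1, the widespread cytosolic glutathione peroxidase, read 2612, 3662.5 and 1529 at PN9, and 1688, 1953 and 1843 at PN14. It read 1222, 1794 and 1556 at PN20 and 1757, 1632 and 1636.5 in Klf4CN. The groups overlapped, and PN9 replicate 3 lay far below the other PN9 arrays. The log2 change from PN9 to PN20 was -0.69 ± 0.26 and did not pass (adjusted p = 0.0641), nor did the one from PN9 to PN14, -0.42 ± 0.26 (adjusted p = 0.322). Without PN9 replicate 3 both passed, at -1.03 (adjusted p = 0.00396) and -0.76 (adjusted p = 0.0412). The fall from PN9 to PN20 also passed on values as deposited (-0.85, adjusted p = 0.0186), with quantile normalization (-0.85, adjusted p = 0.00975) and with array weights (-0.76, adjusted p = 0.00446). It did not pass in the other 21 of 25 settings. With the beta-actin ratio as covariate it was -0.36 (adjusted p = 0.618).

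PN9 replicate 3 was the lowest of its group for 6 of the 9 genes that were Present on all 12 arrays, and the highest for Gsr. PN14 replicate 1 was the lowest of its group for 7 of the 9. Gpx2, known as the gastrointestinal glutathione peroxidase of epithelia, had no Present call on any array, with signals from 1.88 to 28. It was not detected here, and no fold is given for it.

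Of the 3 transferases, Gsta4 passed in 1 comparison and Gsto1 and Gstm1 in none. Gsta4, an alpha-class transferase known for coupling the lipid peroxidation product 4-hydroxynonenal to glutathione, read 5139.5, 6390.4 and 2325 at PN9. It read 6468, 10289.5 and 9976.5 at PN14 and 8671, 9970.4 and 9151.5 at PN20. Both older ages lay above PN9 and overlapped each other. Gsta4 rose 2.17-fold from PN9 to PN20 (log2 1.12 ± 0.34, adjusted p = 0.0281), while the step from PN9 to PN14, 1.04 ± 0.34, did not pass (adjusted p = 0.0770). The rise to PN20 was 0.69 without PN9 replicate 3 (adjusted p = 0.0972), and its adjusted p was 0.0640, 0.0806 and 0.0710 without PN20 replicates 1, 2 and 3. By the authors' rule Gsta4 passed in no comparison, with a deposited sum of 7 for PN9 to PN20. In Klf4CN the arrays read 8486, 8523 and 4398 and overlapped wild type, with a log2 change of -0.35 (95% interval -1.08 to 0.37).

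Gsto1, an omega-class transferase that acts mainly as a thiol transferase, did not pass in any comparison. Its brighter probe set read 11259.8, 12593 and 7309 at PN9, 8479, 12173 and 13529 at PN14, and 10832.5, 12349.9 and 10346 at PN20. In Klf4CN it read 11595, 9765 and 18689, and all 4 groups overlapped. From PN9 to PN14 this probe set changed by 0.14 and the second one by 0.74 (adjusted p = 0.1597 over all kept probe sets). With quantile normalization Gsto1 passed from PN9 to PN14 (0.41, adjusted p = 0.0183) and from PN9 to PN20 (0.42, adjusted p = 0.00576).

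Gstm1, a mu-class transferase, passed in no comparison. The wild-type arrays read 425, 388 and 240.3 at PN9, 396, 395 and 353 at PN14, and 357, 432 and 469.9 at PN20, with all ages overlapping. The Klf4CN arrays read 216, 219 and 212, below all 9 wild-type arrays, where 13.1% of all genes did not overlap between Klf4CN and PN14. Against wild type of PN14 the signal was 1.71-fold lower (log2 -0.78 ± 0.21, 95% interval -1.23 to -0.33), which did not pass over all genes (adjusted p = 0.239). With array weights it passed at the same size (-0.78, adjusted p = 0.0220), and in the other 24 of 25 settings it did not pass. The second probe set read 163, 148 and 222 in Klf4CN against 303, 242 and 269 in wild type, a change of -0.58 (adjusted p = 0.534 over all kept probe sets). In the authors' deposited table the sums were -9 and -7 for these probe sets, and neither comparison passed the authors' rule. Mu-class genes are close in sequence, so probe sets of Gstm1 may also read its relatives.

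Of the 20 probe sets, 14 were Present on all 12 arrays, 4 on none and 2, both of Gstm1, on some. The brightest probe sets of Gclc, Gss, Gsto1 and Gstm1 are of the types (marked s or x in their identifiers) that the array's maker gives as able to read more than 1 transcript, so these signals are uncertain as to gene.

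Cell type marker sums and RNA quality moved with the groups. The summed signal of 10 tested goblet cell markers, of 13 listed, ranged over 629 to 1104 at PN9, 2874 to 4324 at PN14, 7749 to 10946 at PN20 and 1025 to 3253 in Klf4CN. Of these 10, 4 were Present on all arrays, the mucin gene Muc5b had no Present call at PN9, and Muc5ac, Muc5b and Foxa3 had none in Klf4CN. Although the sums of Klf4CN and wild type at PN14 overlapped, 4 of the 10 passed as lower in Klf4CN (Galnt12, Gcnt3, Muc5ac and Muc5b). None passed as higher there, and the all-gene shares correspond to 0.0106 lower and 0.00777 higher. The 14 markers of fibroblasts and stroma, all Present on all arrays, summed to 70647 to 98846 at PN9, 59465 to 72201 at PN14, 44847 to 46742 at PN20 and 56249 to 81605 in Klf4CN. The 15 markers of conjunctival epithelium, 14 of them Present on all arrays, summed to 33815 to 55606, 46939 to 66087, 58261 to 61748 and 30330 to 53424 in the same order. Epithelial markers were thus present in every sample, but so were stromal ones, and epithelium at PN20 lay above every Klf4CN array. The 14 skeletal muscle markers, 7 of them Present on all arrays, summed to 839 to 13792 at PN9, 18839 to 30676 at PN14, 3837 to 14548 at PN20 and 17695 to 51595 in Klf4CN.

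Vessel and blood cell markers moved as well. The 9 tested endothelial and mural markers, all Present on all arrays, summed to 10546 to 14311 at PN9, 9232 to 11191 at PN14, 4883 to 6460 at PN20 and 8729 to 18547 in Klf4CN, so that PN20 lay below every other array. The 8 leukocyte markers, 6 of them Present on all arrays, summed to 2455 to 2645, 3062 to 3423, 1967 to 2407 and 3607 to 4674 in the same order. The sum was lowest at PN20 and highest in Klf4CN, with no overlap between groups. At PN9 and PN20 most of it was Csf1r, the 1 of the 8 that passed as lower at PN20 than at PN9. Itgam, with no Present call at PN9, was the 1 that passed as higher, against 1.08 higher and 0.865 lower at the all-gene shares. The median log2 change of the 8 from PN9 to PN20 was 0.20. The 11 lens and retina markers, 6 of them Present on all arrays and Bfsp2 on none, summed to 4631 to 24748, 14297 to 28490, 20199 to 22709 and 2914 to 19525. Klf4CN replicate 3 had the lowest epithelial sum of all 12 arrays and the highest muscle and endothelial sums. Without it, 0 of the 10 genes passed in Klf4CN, Gsr differed by 0.77 (adjusted p = 0.168) and Gstm1 by -0.76 (adjusted p = 0.1704), and 71 genes passed in place of 26. Gland markers, 5 tested, summed to at most 2142.5 in wild type and to 1838 to 5957 in Klf4CN, and the 6 melanocyte and Schwann cell markers to between 1172 and 5575 over all arrays.

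In the PN9, PN14, PN20 and Klf4CN arrays the actin 3′/5′ ratio averaged 34.9 ± 11.4, 19.0 ± 7.14, 12.7 ± 3.45 and 12.7 ± 6.44 respectively (SD, n = 3). The part of these marker sums in the results was not tested, and the ratio was tried as a covariate. With it the late rise of Gsr was 2.03 (adjusted p = 0.00313), the rise of Txnrd1 from PN9 to PN20 was 1.80 (adjusted p = 0.0116), and Gsta4 did not pass (1.33, adjusted p = 0.1475). In bulk samples, fewer cells of a type and less RNA per cell cannot be told apart.

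**Figure D4:**
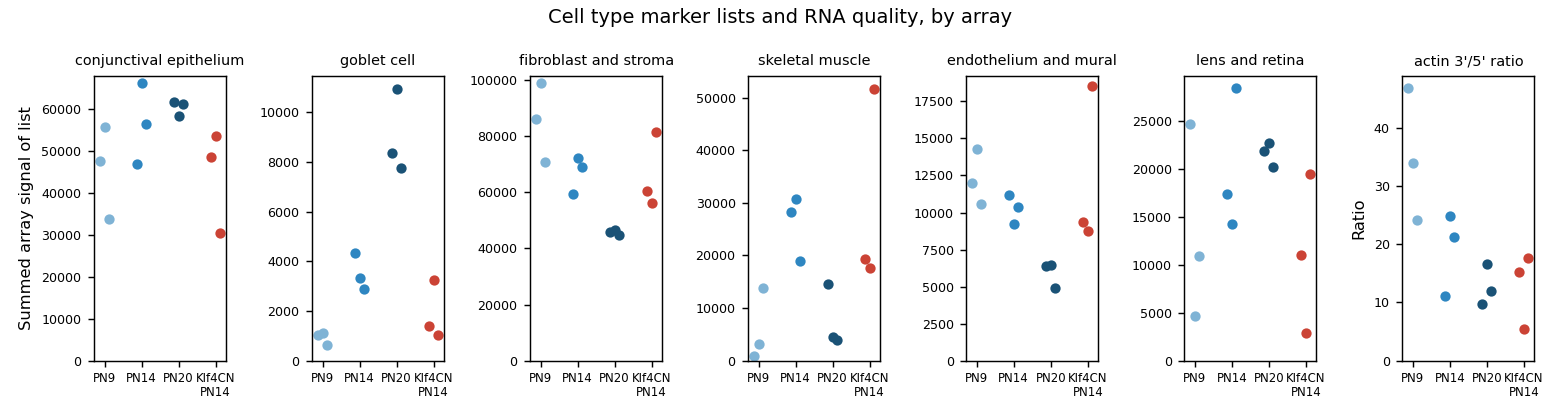
Summed array signal of 6 cell type marker lists and the actin 3′/5′ ratio, each array a point, by group. Goblet cell markers climb from at most 1104 at PN9 to at least 7749 at PN20, stromal markers go down to 44847 to 46742 at PN20, and Klf4CN replicate 3 has the highest muscle and endothelial sums and the lowest epithelial one.

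The wider pathway was read from 8 lists with 106 other genes, of which 94 were tested. The lists were chosen with earlier results of these data known, so their counts are a description and not a test. From PN9 to PN14, 6 of the 94 rose and 2 fell, where the shares of all genes (4.34% and 2.66%) correspond to 4.08 and 2.5 of 94. Of these 6, Hmox1 had no Present call at either age, with signals from 6.13 to 34.7, so its rise is uncertain. From PN14 to PN20, 2 rose and 1 fell, against 0.631 and 0.637 at the all-gene shares (0.671% and 0.678%). Between PN9 and PN20, 19 rose and 12 fell, against 12.7 and 10.2 at the all-gene shares (13.5% and 10.8%), and 0 passed in Klf4CN in the limma fit. The median log2 change of the 94 genes was 0.23, -0.01, 0.20 and 0.01 in the 4 comparisons in turn.

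Transport and turnover of glutathione and its precursors held the largest rises. Of 16 tested genes of that list, 4 rose between PN9 and PN20 (Chac1, Chac2, Slc1a1 and Slc3a2) and 2 fell (Oplah and Slc1a4), where the all-gene shares of 13.5% and 10.8% correspond to 2.16 and 1.73 genes. Chac1, a gamma-glutamyl cyclotransferase that breaks glutathione down, read 45.6, 48.8 and 30.2 at PN9, 158, 366 and 165 at PN14 and 314, 417 and 573 at PN20. All PN14 and PN20 arrays lay above PN9, and Chac1 rose 4.03-fold by PN14 (adjusted p = 0.00286) and 7.70-fold by PN20 (log2 2.95 ± 0.30, adjusted p = 4.8e-05). Its Klf4CN arrays, 92.4, 79.2 and 62.2, did not overlap wild type of PN14 and lay below it, where 13.1% of all genes did not overlap. In this list 0 genes passed in Klf4CN. Slc1a1, a carrier of glutamate and cysteine, rose 3.11-fold by PN14 (log2 1.64 ± 0.41, adjusted p = 0.0317) and 5.90-fold by PN20 (2.56 ± 0.41, adjusted p = 0.000787).

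Among 18 other tested glutathione transferases, 4 rose (Gsta3, Gstcd, Gstt3 and Mgst2) and 1 fell (Gstz1) from PN9 to PN20, against 2.43 and 1.95 at the same all-gene shares. Gsta3, an alpha-class relative of Gsta4, rose from 133 ± 19.9 to 379 ± 32.8 (2.66-fold, adjusted p = 0.000266). Mgst2, a microsomal enzyme, had no Present call at PN9, where its mean signal was 41.8 ± 11.3. Its fitted signal was 2.98-fold higher at PN14 than at PN9 (log2 1.58 ± 0.21 SE, adjusted p = 0.00151). At PN20 it was 2.80-fold higher than at PN9 (1.49 ± 0.21, adjusted p = 0.000417). On each PN9 array the signal of Mgst2 lay above the dimmest Present one, so these are fitted folds and not lower bounds. They are uncertain, since Mgst2 was not detected at PN9. Gstt3, of the theta class, rose 1.73-fold by PN14 (adjusted p = 0.0317).

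Of the 4 other glutathione peroxidases 0 rose and 1, Gpx7, fell, in both comparisons that end at PN20. The all-gene shares correspond to 0.54 higher and 0.433 lower of 4 from PN9, and to 0.0268 and 0.0271 from PN14. Gpx7, a peroxidase of the endoplasmic reticulum, read 300.3, 595 and 199.5 at PN9, 199, 224 and 161 at PN14, and 49.4, 48.7 and 35.5 at PN20. It was 3.47-fold lower at PN20 than at PN14 (log2 -1.80 ± 0.30, adjusted p = 0.0135) and 5.76-fold lower than at PN9 (-2.53 ± 0.30, adjusted p = 0.000123). Selenom, a selenoprotein of the same compartment, belongs to the list of superoxide, peroxide and glyoxal handling. It went from 565 ± 285 at PN9 to 85.4 ± 27.6 at PN20, 5.40-fold lower (-2.43 ± 0.37, adjusted p = 0.000526). The stromal marker sum given above was also lower at PN20, and its part in these falls was not tested.

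In the thioredoxin, glutaredoxin and peroxiredoxin list, 1 of 17 tested genes rose and 2 fell from PN9 to PN20, against 2.29 and 1.84 at the all-gene shares. Of the 2 that fell, Txnrd2 was Present on 1 of 3 PN9 arrays and 0 of 3 PN20 arrays, and its groups overlapped. That fall is therefore uncertain. Prdx3, the mitochondrial peroxiredoxin, read 315, 248 and 398 at PN9, 475, 290.3 and 378 at PN14, and 926, 817 and 827 at PN20, and it rose 2.23-fold from PN14 to PN20 (log2 1.16 ± 0.26, adjusted p = 0.0444). Prdx3 was the 1 of the 17 that rose in that step and 0 fell, against 0.114 and 0.115 at the all-gene shares. Its Klf4CN arrays read 596, 1054 and 581, above the wild type of PN14, and 1 of them lay above all PN20 arrays. Txnrd3, a relative of Txnrd1 that also acts on glutathione, fell by 0.78 on the log2 scale from PN9 to PN20 (375 ± 69.1 to 210.2 ± 10.6, adjusted p = 0.0163).

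Of 11 tested suppliers of NADPH, which both reductases use, 2 rose and 2 fell from PN9 to PN20, near the 1.48 and 1.19 of the all-gene shares. Pgls, of the pentose phosphate pathway, was 2.05-fold lower (log2 -1.03 ± 0.26, adjusted p = 0.0120). Nnt, the mitochondrial transhydrogenase, was already 1.53-fold lower at PN14 (adjusted p = 0.0460). Me1, the cytosolic malic enzyme, was 2.79-fold higher (adjusted p = 0.0269), but it was Present on 2 of 3 PN20 arrays and 1 of 3 PN9 arrays.

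In the list of NRF2 and its partners, 2 of 8 tested genes rose from PN9 to PN20 and 0 fell, against 1.08 and 0.865 at the all-gene shares. Nfe2l2 went from 578 ± 124 to 1196 ± 33.8 (2.07-fold, adjusted p = 0.00585), and Bach1, a repressor that competes for the same element, from 1010 ± 323 to 1795 ± 114 (1.83-fold, adjusted p = 0.0184). In the list of genes known to respond to NRF2, 8 of 16 tested rose and 1 (Blvrb) fell from PN9 to PN20, against 2.16 and 1.73 at the all-gene shares. The list shares Gclc, Gclm, Gsr and Txnrd1 with the 10 genes described above, and all of these but Gclm are among the 8. The count is therefore not separate from the results above, and the list was chosen with earlier results of these data known. The others that rose were Abcc4, Cbr1, Cbr3, Nqo1 and Me1, which is also counted among the suppliers of NADPH. Nqo1, a quinone reductase of that list, read 98, 88.6 and 69.6 at PN9, 100.3, 117 and 88.2 at PN14, and 226, 170.1 and 191 at PN20. It rose 1.79-fold from PN14 to PN20 (log2 0.84 ± 0.19, adjusted p = 0.0486). Gsr, already counted above, and Nqo1 were the 2 of the 16 that rose in that step, and 0 fell. The all-gene shares of 0.671% and 0.678% correspond to 0.107 and 0.108 of 16. The Klf4CN arrays of Nqo1 read 107, 124 and 94.5 and overlapped wild type.

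Of 10 tested genes of superoxide, peroxide and glyoxal handling, 2 rose (Hagh and Sod2) and 3 fell (Glo1, Selenom and Selenow) from PN9 to PN20. The all-gene shares correspond to 1.35 and 1.08, and the median log2 change of the 10 was -0.20. Selenom, given above, had the largest change. Sod2, the mitochondrial superoxide dismutase, rose 1.78-fold by PN14 (adjusted p = 0.0095) and went from 885 ± 60.1 at PN9 to 2135 ± 42.9 at PN20 (2.39-fold, adjusted p = 0.000172).

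**Figure D5:**
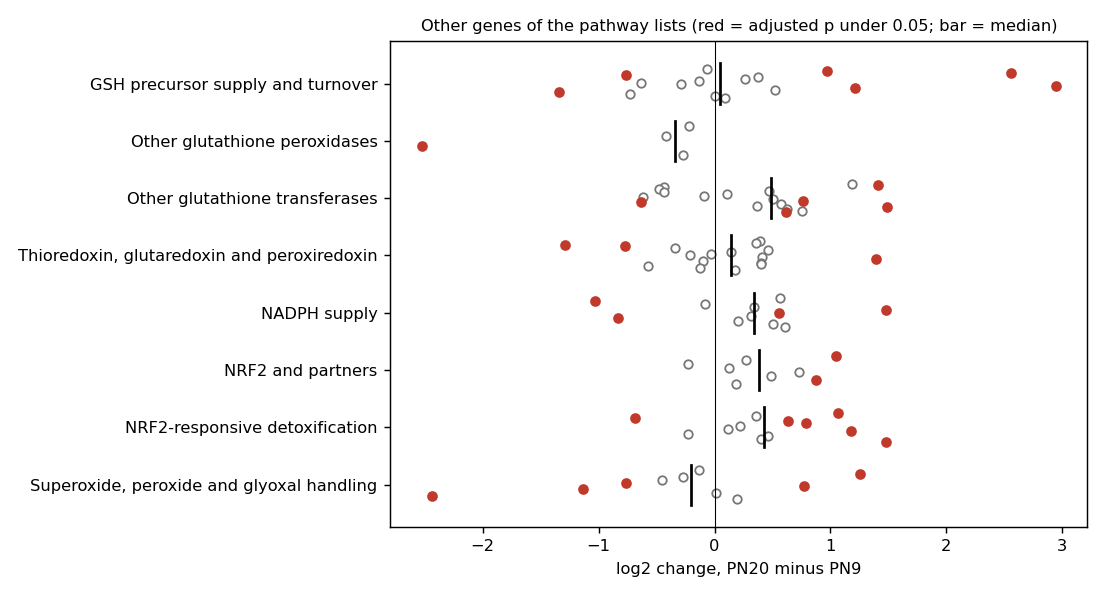
Log2 change from PN9 to PN20 of the other tested genes in 8 pathway lists, 1 point per gene, red where the adjusted p is under 0.05, with a bar at each list's median. Chac1 at 2.95 and Slc1a1 at 2.56 lie farthest right, and Gpx7 at -2.53 and Selenom at -2.43 farthest left.

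The 5 genes whose signal over the 12 arrays was most like that of Gsr, by Pearson's r on the log2 scale among 2977 genes that vary and are detected, were Slc35a2 (r = 0.94), Aacs (0.92), Kdm3b (0.91), Itln1 (0.91) and Wdr1 (0.90). The 12 points share the 4 groups, and all PN20 arrays lay above all other arrays for Slc35a2, Kdm3b and Itln1 but not for Aacs and Wdr1. Slc35a2, the Golgi carrier of UDP-galactose, read 534 ± 12.5, 536 ± 149.6, 1262 ± 174 and 819 ± 109 at PN9, PN14, PN20 and in Klf4CN. Itln1, a secreted lectin, read 1.44 ± 0.99, 9.66 ± 1.47, 96.8 ± 11.4 and 22.2 ± 19.4 in the same order, and was Present on 0, 1, 3 and 1 of the 3 arrays, so its levels outside PN20 are mostly undetected. The 5 were picked for their likeness to Gsr over all 12 arrays, so the order of their groups follows from the choice.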

How the data were processed

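The authors captured conjunctival epithelium by laser, amplified its RNA in 2 cycles and hybridised 1 array per sample, per the labels' protocols. The deposited signals are intensity values on a linear scale, made with GCOS 1.4 and set to a 2% trimmed mean of 150 per array, per the file headers. The deposited score for each pair of groups is the sum, made by the authors, of increases and decreases over 9 array pairs. The deposited other columns give the number of Present calls in each group and, coded as 1 number, which comparisons met the rule of the authors: all 3 arrays of the higher group Present, no overlap, means over 2-fold apart and a sum beyond 5.

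Control probe sets (64) were left out, and probe sets above the 40th percentile of their array on at least 3 arrays were kept (30600). Arrays were then scaled to a common median (factors 0.8761 to 1.135), values were taken as log2(signal + 16), and the kept probe set with the highest mean stood for its gene. Of the probe sets 34958 had 1 symbol in the platform annotation, 932 several and 9211 none. Differences were tested in limma 3.58.1 (R 4.3.3), 1 mean per group over all 12 arrays, trended moderated variance and Benjamini-Hochberg adjustment over 14163 genes. The script was tested on simulated data. Where a group had no Present call, its arrays were raised, where lower, to the dimmest probe set that was Present on all 3 of them. The fold was then computed, and it is a bound only where an array was raised. In each pathway list the 2 genes of largest change that passed with non-overlapping groups were named, and the 5 genes nearest to Gsr. Alternatives covered offset, scaling, filter, choice of probe set, variance model, array weights, groups fitted, replicate block, actin ratio and leaving out each array. The genes and lists were chosen with earlier results of these data known. The replicate numbers in the labels were not taken to pair samples, and the files name no batch. The precision is set by signal and by 3 arrays per group, not by a read depth.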

Additional observations from a re-analysis of the deposited data

How the results depend on the processing

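The log2 changes of the 10 genes kept their direction wherever they passed, under 25 other settings. The number of the 10 that passed from PN9 to PN14, 2 here, was 0 with arrays scaled by the all-probe-set median, 4 with quantile normalization, 1 with the mean of all kept probe sets, 0 with the actin ratio as covariate, and 0 to 3 on leaving out single arrays. From PN14 to PN20 it was 3 with array weights in place of 1, and 1 on leaving out any array. From PN9 to PN20 it was 2 with the actin ratio in place of 4, and 3 to 4 on leaving out arrays. In Klf4CN it was 2 with array weights in place of 0, and 0 on leaving out any array. The causes were not tested.

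Counts over all genes moved more. From PN9 to PN14, 992 genes passed, against 569 with that scaling, 2969 with array weights, 131 with the actin ratio and 297 to 2075 without single arrays. From PN14 to PN20, 191 passed, against 100 with that scaling, 112 without a filter, 106 with the mean of probe sets, 119 with a constant prior variance, 1495 with array weights, 1137 with only the 2 groups fitted, 100 with the actin ratio and 2 to 725 without single arrays. From PN9 to PN20, 3443 passed, against 5830 with array weights, 576 with the actin ratio and 2090 to 4336 without single arrays. For Klf4CN, 26 passed, against 10 with that scaling, 453 with array weights, 6 with only the 2 groups fitted, 5 with the actin ratio and 4 to 71 without single arrays. Of the genes that passed, 62% were higher at PN14 than at PN9, against 48.1% on the deposited values and 74.9% with that scaling. From PN14 to PN20 49.7% were higher, against 28% with that scaling, and for Klf4CN 42.3% against 30%. From PN9 to PN20 55.5% were higher, against 40.7% as deposited, where the median of all genes shifted by -0.13 on the log2 scale.

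Same-numbered samples did not deviate together, with correlations of -0.21 to 0.27, so the numbers were not taken as a pairing. With a replicate block, 1 of the 10 genes passed from PN9 to PN14, where Txnrd1 had an adjusted limma p of 0.0507, and 102 genes passed from PN14 to PN20. The larger later step of Gsr then had an adjusted p of 0.0544, and the other calls on the 10 genes did not change. Signal over background limits Gpx2, the second Gsr probe set and 2 of Txnrd1, which had no Present call.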
